A study of Homo sapiens with 3 samples.

Results

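HIRA and 9 further genes that place the histone variant H3.3 in chromatin, or hand histones to the factors that do, were described in 22RV1 cells in which SPINK1 had been silenced. The members were chosen by gene name (HIRA, UBN1, CABIN1, ASF1A, ASF1B, DAXX, ATRX, H3F3A, H3F3B and CHAF1A), and the set was put together because HIRA was lower on these arrays, most of all with hairpin 2. Of the 10 names, 9 had a probe on the array and 8 had a probe bright enough to be measured, which gave 8 of the 17061 genes tested. These 9 names had 16 of the 58201 gene probes, and 14 of the 16 were kept.

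22RV1 is a SPINK1-positive prostate cancer line that grows in culture. Each line carried a lentiviral hairpin, stably kept under puromycin in medium with fetal bovine serum, and this vector and selection were shared by the silenced and the control lines. Total RNA of 22RV1-shSPINK1 cells with hairpin 1, 2 or 3 was labelled with Cy5, and RNA of 22RV1-shSCRM cells with a scrambled hairpin was labelled with Cy3 on each of 3 two-color Agilent arrays. A log2 ratio below 0 therefore marks a lower signal in 22RV1-shSPINK1 cells. There was 1 array per hairpin and no array with swapped dyes, so a hairpin has no replicate, and silencing cannot be told apart from what the dye does to a probe. The labels do not say whether the control RNA came from 1 culture or from several. The p-values and SEs rest on the spread between the 3 log2 ratios of a gene, which limma moderates toward a value pooled over all genes. How far this spread holds any difference between control cultures is not known.

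Each array held 60901 gene spots, of which 41.3% to 46.8% were well above background in Cy5 and 38.8% to 42.6% in Cy3, and 0 were saturated. SPINK1, the silenced gene, had log2 ratios of -3.71, -3.65 and -3.89 with hairpins 1, 2 and 3. Of the markers of luminal prostate epithelium, 10 of 10 were detected above background with either dye on each array. Of the basal markers (KRT5, KRT14 and TP63), 0 of 3 were. Of the fibroblast markers, COL1A1 and DCN were above background in both channels and COL1A2 never was. Of the leukocyte markers, CD14 was above background in both channels, PTPRC in Cy3 alone by 1 of its 5 probes, and CD3E never.

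H3.3 is the histone H3 that cells deposit outside DNA replication, at active genes and at places where nucleosomes have been lost. The HIRA complex, built from HIRA, UBN1 and CABIN1 and supplied with histones by ASF1A, deposits it in transcribed and regulatory chromatin, while DAXX with the remodeller ATRX deposits it at telomeres, heterochromatin and repeats. H3F3A and H3F3B are separate genes for the same H3.3 protein. ASF1A and ASF1B carry new H3 and H4 to the HIRA complex or to CAF-1, whose large subunit is CHAF1A and which assembles the replication-dependent H3 at the fork.

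The measurements of HIRA, H3F3A and ATRX rest on probes of 60 bases, and the probes below are shown because the first is the sole reading of HIRA, while the others are pairs from different places of H3F3A and of ATRX whose readings can be set beside each other. They are printed as the array files give them, with the position and strand of the array's annotation (hg19). Of the HIRA probe the first 30 bases are printed.
HIRA, chr22:19318407-19318466, minus strand: atttcctttggccgataatcaggatttccc
H3F3A, chr1:226259067-226259126, plus strand: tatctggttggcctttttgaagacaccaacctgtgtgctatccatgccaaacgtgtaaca
H3F3A, chr1:226253364-226253423, plus strand: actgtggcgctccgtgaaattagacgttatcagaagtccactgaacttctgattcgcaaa
ATRX, chrX:76872082-76872141, minus strand: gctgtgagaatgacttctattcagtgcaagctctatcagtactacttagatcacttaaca
ATRX, chrX:76944322-76944381, minus strand: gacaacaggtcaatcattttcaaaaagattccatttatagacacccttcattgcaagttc

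HIRA, the histone chaperone that gives the complex its name, was lower in 22RV1-shSPINK1 cells on each of the 3 arrays. Its probe, assigned to the transcript NM_003325, had log2 ratios of -0.62, -1.39 and -0.56 with hairpins 1, 2 and 3. The signal with hairpin 2 was thus 38.1% of that in 22RV1-shSCRM cells, against 65.2% with hairpin 1 and 67.9% with hairpin 3, or 2.63-fold, 1.53-fold and 1.47-fold lower. The mean log2 ratio was -0.86 ± 0.47 (SD, n = 3). Because HIRA was chosen for this fall, its values are a description and no test is given. In bulk RNA of this kind, fewer cells that express a gene and less of its RNA in each cell cannot be told apart.

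Hairpins 1 and 3 differed by 0.06 on the log2 scale, and hairpin 2 lay 0.78 below hairpin 1 and 0.83 below hairpin 3. With 1 array per hairpin these differences were not tested, and the spread between cultures of 1 hairpin is not known. In scanned brightness, the Cy5 channel of the HIRA probe read 424, 184 and 380 with hairpins 1, 2 and 3, while the Cy3 channel of the control RNA read 893, 786 and 860. After the scanner software's correction for background and dye, Cy3 was 2160, 2230 and 2240 with a coefficient of variation of 1.97%, and Cy5 was 1430, 762 and 1550 with a coefficient of variation of 34.0%. The control signal was thus level across the arrays, and the spread lay in the Cy5 channel.

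**Figure D1:**
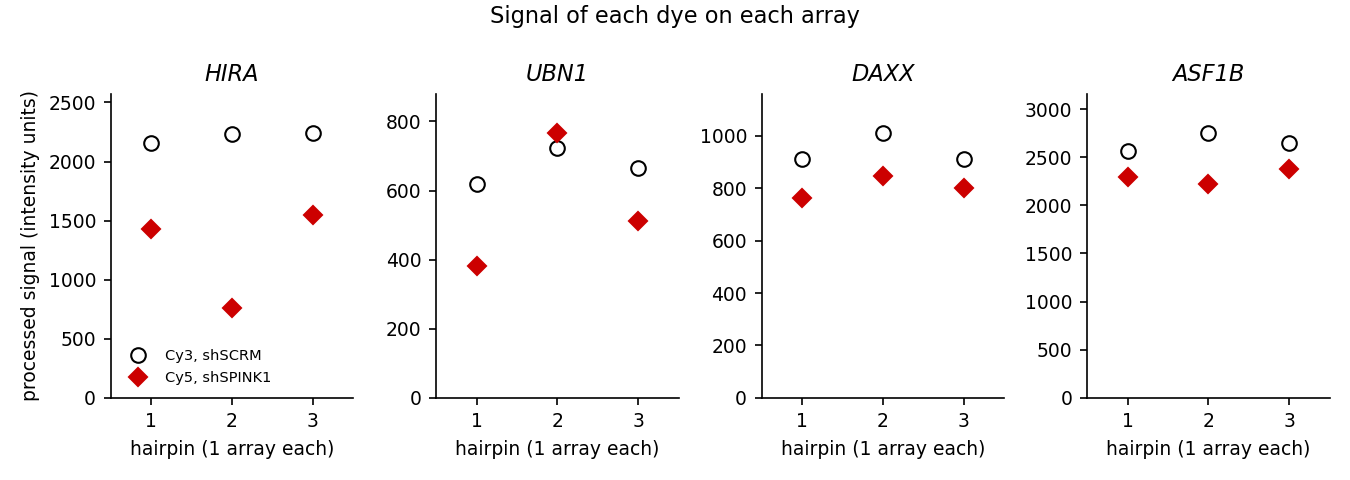
Processed signal of HIRA, UBN1, DAXX and ASF1B (vertical axis, intensity units, starting at 0) for the shSCRM RNA in Cy3 (open circles) and the shSPINK1 RNA in Cy5 (diamonds) on the array of each hairpin. For HIRA the circles stay between 2160 and 2240 while the hairpin 2 diamond is at 762; for UBN1 the hairpin 2 diamond, at 766, is the highest of the 3.

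By its mean log2 ratio HIRA was 4th from the lowest among the 17061 genes tested. It was 4th with hairpin 2, 84th with hairpin 1 and 67th with hairpin 3. Its log2 ratio with hairpin 2 minus the mean of hairpins 1 and 3 was -0.80, which was 7th from the lowest. For scale, 1.04%, 0.955% and 0.703% of all genes had a log2 ratio below -0.5 with hairpins 1, 2 and 3, and HIRA was chosen for being among them. With the log ratios of the scanner software, the values were -0.59, -1.55 and -0.53. After loess, the HIRA mean was -0.59 without hairpin 2, -0.98 without hairpin 1 and -1.01 without hairpin 3.

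**Figure D2:**
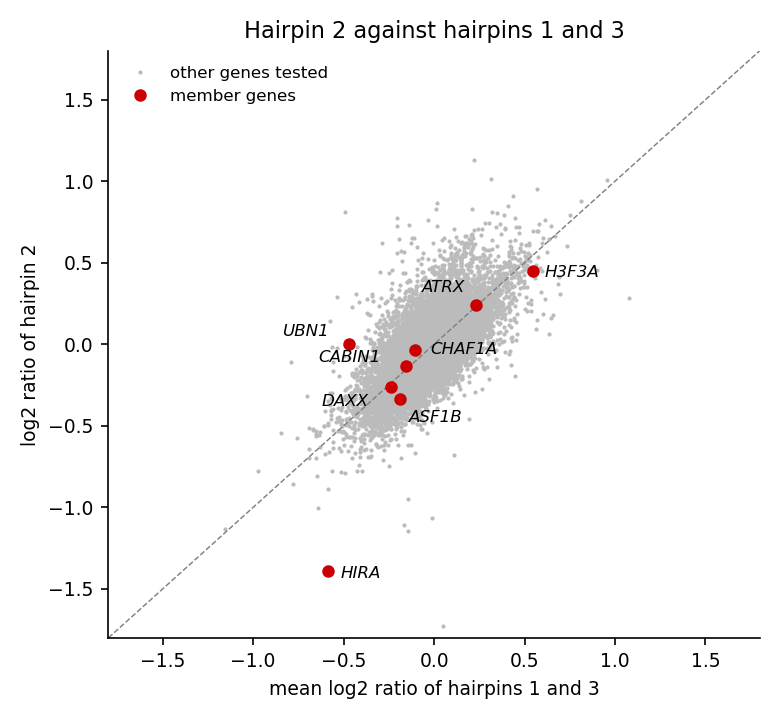
Log2 ratio with hairpin 2 (vertical axis) against the mean log2 ratio of hairpins 1 and 3 (horizontal axis) for the genes tested (grey) and the 8 measured member genes (red); the dashed line marks equal values, and 3 genes beyond 1.8 on either axis, SPINK1 among them, are not drawn. HIRA lies 0.80 below the line, and UBN1 lies above it.

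UBN1, the subunit that binds H3.3 within the HIRA complex, was read by 1 probe (chr16:4932018-4932077, plus strand). Its log2 ratios were -0.59 with hairpin 1, -3.3e-05 with hairpin 2 and -0.34 with hairpin 3. It was lower with hairpins 1 and 3 and level with the control with hairpin 2, the hairpin with which HIRA was lowest. The Cy5 brightness was 138, 194 and 149 against 309, 289 and 304 in Cy3, and the coefficient of variation of the processed signal was 35.3% in Cy5. The mean of -0.31 (SE 0.10, n = 3) did not pass (limma, Benjamini-Hochberg adjusted p 0.0873). The value depended on single hairpins, with a mean of -0.47 (adjusted p 0.0167 by limma) without hairpin 2 and of -0.17 (0.175) without hairpin 1. With median centring it was -0.62 (adjusted p 0.00145 by limma), which was 0.39 below the median of all genes under that centring.

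CABIN1, the calcineurin-binding scaffold of the complex, had 2 probes that lie near each other on chromosome 22. The brighter (chr22:24574422-24574481) gave log2 ratios of -0.27, -0.14 and -0.04 with hairpins 1, 2 and 3, with a Cy5 brightness of 219, 191 and 193 and a Cy3 brightness of 373, 317 and 303. The mean was -0.15 (SE 0.06, n = 3), with an adjusted p of 0.150 by limma. The dimmer probe (chr22:24574105-24574164) read -0.09, 0.03 and 0.04, so the probes differed in direction with hairpins 2 and 3, and neither reached the size seen for HIRA on any array.

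ASF1A, the chaperone that serves the HIRA complex, had 1 probe, and it was too dim to be kept. Its Cy5 brightness was 26.9, 20.7 and 21.0 and its Cy3 brightness 44.3, 39.2 and 38.1. It was well above background on 2 of the 3 arrays in each channel, and in neither channel on all 3. Its log2 ratios of -0.04, -0.04 and -0.02 say little at this brightness, since the offset used in the background correction draws dim probes toward 0. With no filter on dim probes, its adjusted p by limma was 0.691.

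ASF1B, the form of ASF1 that goes with dividing cells, was lower on all 3 arrays. Its log2 ratios were -0.18, -0.34 and -0.19 with hairpins 1, 2 and 3, with a Cy5 brightness of 685, 531 and 590 and a Cy3 brightness of 1040, 986 and 1010. Hairpin 2 gave the lowest value here too, by a smaller margin than for HIRA. The mean of -0.24 (SE 0.05, n = 3) passed, with an adjusted p of 0.0331 by limma. The call ended when hairpin 2 or hairpin 3 was left out, with an adjusted p by limma of 0.150 and 0.111, and over all alternatives the adjusted p ran from 0.00053 to 0.220.

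DAXX, the H3.3 chaperone of the second route, fell by a small and even amount. Its log2 ratios were -0.26, -0.26 and -0.22, with a Cy5 brightness of 251, 212 and 218 and a Cy3 brightness of 422, 386 and 391. The mean was -0.25 (SE 0.05, n = 3), with an adjusted p of 0.0205 by limma, and the SD over the hairpins was 0.03. Without hairpin 2 or hairpin 3 the mean stayed at -0.24 and -0.26 and the adjusted p by limma was 0.0782 and 0.0949. Over all alternatives the adjusted p ran from 0.000473 to 0.181.

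ATRX, the chromatin remodeller that works with DAXX, was higher where DAXX was lower. The brightest of its 4 probes (chrX:76872082-76872141) gave log2 ratios of 0.13, 0.24 and 0.34, with a Cy5 brightness of 319, 285 and 317 and a Cy3 brightness of 395, 351 and 369. The mean was 0.24 (SE 0.06, n = 3) with an adjusted p of 0.0376 by limma, and it turned to -0.10 when each array was centred on its median in place of loess. That centring moved the median of all genes to -0.23, so ATRX remained 0.13 above the median there, and HIRA was 0.97 below it.

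The other ATRX probes went the same way where they could be read. The probe at chrX:76761341-76761400 read 0.13, 0.28 and 0.56, and the one at chrX:76944322-76944381 read 0.23, 0.07 and 0.13. The second of these was dim, with a Cy5 brightness of 45.9, 33.5 and 39.9 and a Cy3 brightness of 54, 50.6 and 56.4. The probe at chrX:76778750-76778809 was well above background on 0 of 3 arrays in either channel and gives no reading. Without hairpin 2 or hairpin 3 the adjusted p of the brightest probe by limma was 0.111 and 0.208, and over all alternatives it ran from 0.0100 to 0.208.

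H3F3A, a gene for H3.3 itself, had the largest rise of the members, but the size depended on the probe and on the normalization. The brightest probe (chr1:226259067-226259126) gave log2 ratios of 0.30, 0.45 and 0.79 with hairpins 1, 2 and 3, from a Cy5 brightness of 31600, 28100 and 32300 and a Cy3 brightness of 30500, 28000 and 27200. The mean was 0.51 (SE 0.09, n = 3), with an adjusted p of 0.0153 by limma. The probe at chr1:226253364-226253423 read 0.26, 0.30 and 0.62. The probe at chr1:226259602-226259661 read -0.18, 0.17 and 0.40, so with hairpin 1 the probes differed in direction.

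This H3F3A probe was brighter than 99.8% of the genes tested. The 854 genes in the brightest 5% had a median log2 ratio of 0.13 after loess and -0.01 with the scanner software's log ratios, against -0.01 for all genes after loess. With the scanner software's log ratios the H3F3A means of the 3 probes, in the order given, were 0.22, 0.13 and -0.13, and the deposited table gave a mean of 0.07 for the gene. Without hairpin 3 the mean was 0.38, with an adjusted p of 0.0525 by limma, and over all alternatives the adjusted p ran from 0.000961 to 0.677. For each of the 3 probes the array's annotation also lists a transcript that RefSeq assigns to H3P6, a transcribed pseudogene of H3F3A, so part of the signal may come from near-identical copies, which was not tested.

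H3F3B, the second H3.3 gene, had no probe under its name. A probe filed under the transcript ENST00000254810 (chr17:73772867-73772926, minus strand), which the annotation describes as H3F3B, falls outside the rule and read -0.44, -0.13 and -0.05, with a mean of -0.21. CHAF1A, the CAF-1 subunit of the replication-dependent route, had log2 ratios of -0.05, -0.03 and -0.15 by its brighter probe (chr19:4443140-4443199), with a Cy5 brightness of 1070, 838 and 845 and a Cy3 brightness of 1460, 1240 and 1400. The mean of -0.08 (SE 0.05, n = 3) had an adjusted p of 0.346 by limma. Its dimmer probe (chr19:4431965-4432024) read 0.02, -0.06 and -0.06.

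**Figure D3:**
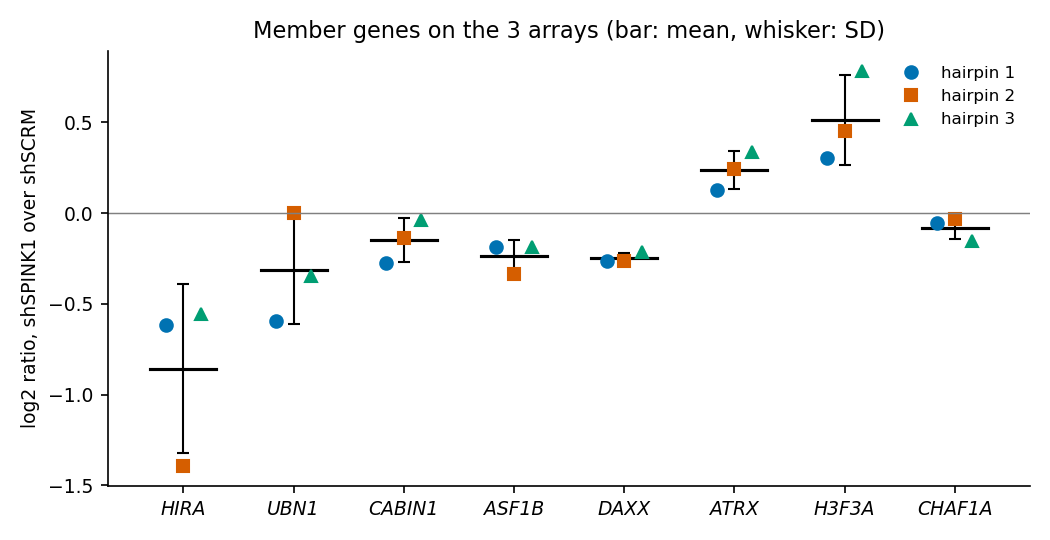
Log2 ratio of shSPINK1 over shSCRM for the 8 measured member genes, by hairpin (circle, square and triangle for hairpins 1, 2 and 3), with the mean (bar) and SD (whisker) of the 3 arrays. HIRA at hairpin 2 stands at -1.39, UBN1 at hairpin 2 lies on 0, and H3F3A and ATRX are above 0 on all 3 arrays.

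**Figure D4:**
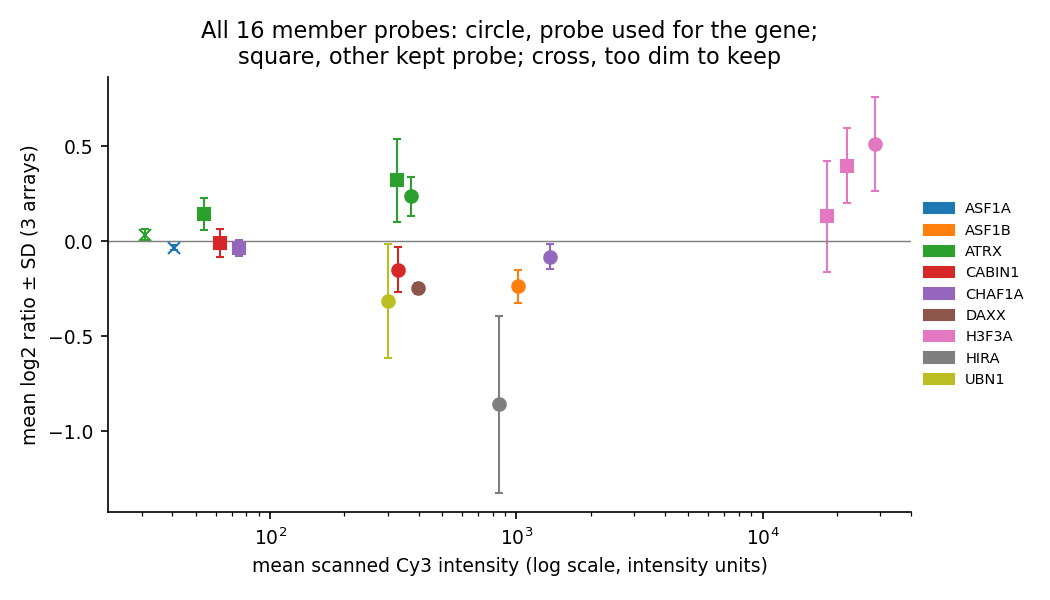
Mean log2 ratio and SD over 3 arrays of each of the 16 member probes (vertical axis) against its mean scanned Cy3 brightness (horizontal axis, log scale), coloured by gene. The HIRA probe, at -0.86, is the lowest, and the 3 H3F3A probes, at 0.51, 0.40 and 0.13, are the brightest.

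Of the 7 measured members other than HIRA, 2 (DAXX and ASF1B) were lower and 2 (ATRX and H3F3A) higher at an adjusted p under 0.05 by limma with Benjamini-Hochberg adjustment, and 3 (UBN1, CABIN1 and CHAF1A) did not pass. Among all genes tested, 8.72% were lower and 4.77% higher by the same rule. With a mean log2 ratio also beyond 0.5, 0 members were lower and 1 (H3F3A) was higher, against 0.393% and 0.334% of all genes. At an unadjusted p under 0.05 by limma, 6 of the 7 passed, against 29.8% of all genes. The log2 ratio was below 0 on all 3 arrays for 5 of the 7, counting the -3.3e-05 of UBN1, and above 0 on all 3 for 2, against 29% and 21.3% of all genes. The median log2 ratio of the 7 was -0.15, against -0.01 over all genes. With numbers this small, and genes chosen with these results known, the shares are a description.

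A further list held 32 genes of histone supply and exchange, such as chaperones and their partners, for H3.3 and for other histones. Of the 32, 3 fell, 3 rose and 26 did not pass, with a median log2 ratio of 0.02. These are 9.38% of the list in each direction, beside 8.72% lower and 4.77% higher among all genes. NAP1L4, a carrier of H2A and H2B, had log2 ratios of -0.79, -0.52 and -0.59 and a mean of -0.63 (SE 0.06, n = 3), with an adjusted p of 0.00618 by limma. It was the sole gene of the list beyond -0.5, and its call held without each hairpin in turn but not with the scanner software's log ratios (adjusted p 0.107 by limma). VPS72, which brings H2A.Z to the SRCAP and TIP60 complexes, read -0.29, -0.47 and -0.43 with a mean of -0.40 and an adjusted p of 0.00882 by limma, or 0.0539 without hairpin 3. DEK, an oncoprotein that binds chromatin and acts as an H3.3 chaperone, had a mean of -0.21 and an adjusted p of 0.0409 by limma, which became 0.188 without hairpin 2 and 0.144 without hairpin 3. The DEK call was lost in 7 of the 12 alternatives.

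The 3 genes of that list that rose were among the brightest 5% of genes, where the median after loess was above 0. TONSL, which reads new histones at replication forks, had a mean of 0.49 (adjusted p 0.00747 by limma), but its other probes had means of -0.10 and 0.12. NPM1, a nucleolar chaperone, had a mean of 0.39 (adjusted p 0.0079 by limma), while its other probes had means of -0.06 and -0.18 and the deposited table gave -0.03. SSRP1, a subunit of FACT, had a mean of 0.28 (adjusted p 0.0225 by limma), which turned to -0.05 with median centring, and the adjusted p was 0.0961 without hairpin 2 and 0.0694 without hairpin 3. Of close relatives and partners of the members, UBN2, CHAF1B, RBBP4, HIRIP3 and H3F3C did not pass. UBN2, the relative of UBN1, had a mean of 0.12 and CHAF1B, the partner of CHAF1A, one of 0.07. RBBP4, the histone-binding subunit that CAF-1 shares with other complexes, had a mean of -0.17, HIRIP3, a HIRA-interacting protein, one of -0.13, and H3F3C, an H3.3-like histone gene, one of 0.19. UBN2, CHAF1B and H3F3C turned to -0.22, -0.28 and -0.14 with median centring.

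HIRA lies on chromosome 22, and the 5 nearest measured genes on each side, with probes from 285 kb below to 188 kb above that of HIRA, did not share its size of change. Their mean log2 ratios ran from -0.27 to 0.21 with a median of -0.04, and with hairpin 2 they ran from -0.29 to 0.27. On no array was any of the 10 below -0.5. SLC25A1, the mitochondrial citrate carrier, had a mean of -0.27 (adjusted p 0.0161 by limma), and the adjusted p was 0.0588 without hairpin 2 and 0.0796 without hairpin 3. With median centring its mean was -0.63, which was 0.40 below the median of all genes under that centring. UFD1L, a cofactor of protein degradation, had a mean of 0.21 (adjusted p 0.0370 by limma), which turned to -0.12 with median centring, and the adjusted p was 0.166 without hairpin 2 and 0.136 without hairpin 3. The other 8 (DGCR11, DGCR14, LINC01311, CLTCL1, MRPL40, C22orf39, CDC45 and the probe without a gene name) did not pass.

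**Figure D5:**
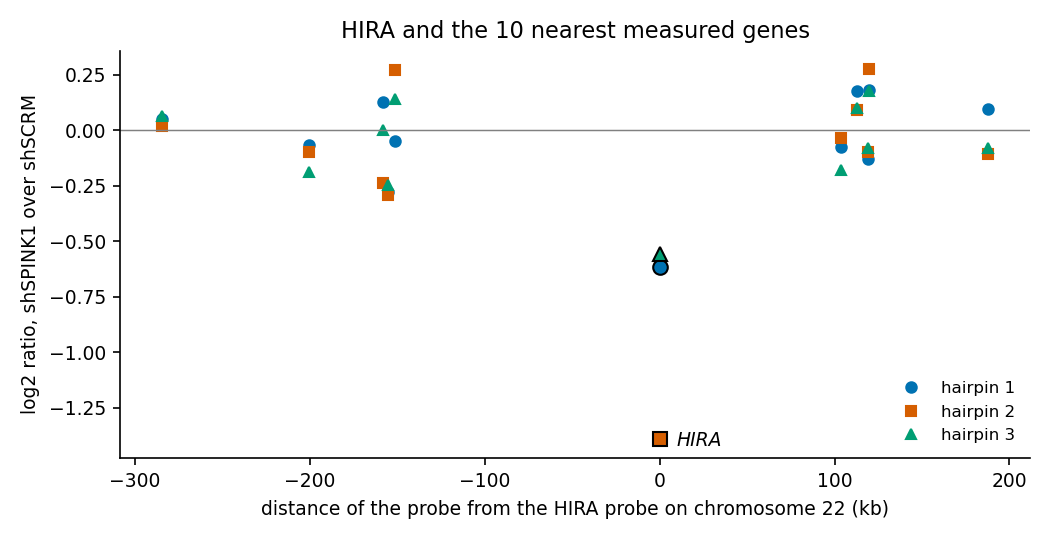
Log2 ratio of shSPINK1 over shSCRM (vertical axis) for HIRA (outlined symbols at 0) and the 10 nearest measured genes against the distance of each probe from that of HIRA (kb), by hairpin. The neighbours lie between -0.29 and 0.27 with hairpin 2, where HIRA is at -1.39.

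The genes whose log2 ratios over the 3 arrays lay closest to those of HIRA, by Euclidean distance, were EMP1 (epithelial membrane protein 1; distance 0.400), LOC101929612 (0.585), LSS (lanosterol synthase; 0.649), SRCIN1 (0.669) and CFL1 (cofilin; 0.670). EMP1 read -0.63, -1.01 and -0.66 with hairpins 1, 2 and 3, and so was close to HIRA with hairpins 1 and 3 and higher than it with hairpin 2. SRCIN1 read -0.26, -1.11 and -0.07, with hairpin 2 apart from the others. All 5 were lower on each array. The distances were taken after loess alone. With the scanner software's log ratios the means of EMP1 and SRCIN1 were -1.23 and -1.08, below that of HIRA (-0.89). Those of LOC101929612, LSS and CFL1 (-0.71, -0.83 and -0.55) were above it. The likeness is over 3 points that share the control RNA, and nothing further is read from it.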

How the data were processed

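Gene expression was measured in 22RV1-shSPINK1 cells with 3 hairpins against 22RV1-shSCRM cells on 3 two-color arrays of 1 slide, 1 array per hairpin, with groups taken from the sample titles. The authors deposited the scanner's intensity of each spot and its local background (Feature Extraction 11.5.1.1), without normalization, and a log10 ratio of Cy5 over Cy3 after its own background and dye correction. A table of log2 values that the authors deposited matched the log2 ratio of the processed signals within 0.02 for 100% of 32086 genes with 1 probe on each array. Its medians were -0.12, -0.17 and -0.20 for hairpins 1, 2 and 3.

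In R 4.3.3 with limma 3.58.1, intensities were corrected with normexp (offset 50) on all spots. Control spots and spots flagged as outliers (at most 0.245% of an array) had no weight, loess was run within arrays, and repeated spots were averaged per probe. Probes well above background on every array in at least 1 channel were kept (21443 of 58201), and the brightest kept probe stood for its gene. The mean log2 ratio was tested against 0 with lmFit and eBayes, with Benjamini-Hochberg adjustment over 17061 genes. The threshold was an adjusted p under 0.05, and, for a further count, a log2 ratio beyond 0.5, after the study's methods, which name no test for the arrays. The fit was tested on simulated data. No arrays held the same values, with at most 0.0345% of gene spots identical. The number of arrays limits the precision.

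The members and lists were chosen with earlier results of these data known. Named were all members, SPINK1, chaperone genes past the threshold, close relatives or partners of members, 5 neighbours of HIRA on each side, and the 5 genes nearest to it in pattern. Positions come from the annotation in the array files (hg19). Alternatives covered background correction, normalization, source of values, filter, probe rule, variance trend and leaving out each array.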

Additional observations from a re-analysis of the deposited data

How the results depend on the processing

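The log2 ratio of HIRA was below 0 under all 12 alternatives, between -1.20 with median centring and -0.59 without hairpin 2. Counts of the other members depended on the processing. Counts are at an adjusted p under 0.05 by limma, with those also beyond 0.5 in parentheses. With median centring, which moved the median of all genes to -0.23, the members gave 5 lower (3 beyond 0.5) and 1 higher (0), the 32 other chaperone genes 24 lower (7) and 1 higher, and all genes 10339 lower (1965) and 91 higher (2), against 1487 (67) and 814 (57). With the scanner software's log ratios and with the deposited table alike, 0 members, 0 of the 32 genes and, of all genes, 3 lower (3) and 0 higher (0) passed by limma, while 2 and 3 members, 3 and 4 of the 32, and 4092 and 3837 of all genes had an unadjusted p under 0.05. With no background correction 0 members were lower and 0 higher beyond 0.5, and 5 members and 5013 of all genes had an unadjusted p under 0.05 by limma. With an offset of 16 the members gave 1 lower and 0 higher beyond 0.5, and all genes 113 lower beyond -0.5. With the mean of a gene's probes 0 members and 34 of all genes were higher beyond 0.5.

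Leaving out each hairpin in turn gave 0 to 2 members lower and 0 to 2 higher, and 0 to 1 higher beyond 0.5. Of the 32 genes, 1 to 4 were lower, and 2 to 6 were higher, with 0 to 1 beyond 0.5. Of all genes, 290 to 1936 were lower and 176 to 1242 higher, with 47 to 129 higher beyond 0.5. Without hairpin 3, 0 members other than HIRA passed by limma, while 5 members and 3619 of all genes had an unadjusted p under 0.05. Directions turned with median centring for ATRX (-0.10), SSRP1 (-0.049), UBN2 (-0.22), CHAF1B (-0.28), H3F3C (-0.14), UFD1L (-0.12) and CLTCL1 (-0.0028), with the deposited table for NPM1 (-0.033), and without hairpin 2 for LINC01311 (0.062) and CDC45 (0.0061). In each case the cause was not tested. No paired analysis was possible because a single group was arrayed, in which each array sets a hairpin against the control RNA. Dim probes limit ASF1A, the ATRX probes at chrX:76778750-76778809 and chrX:76944322-76944381, and the second probes of CABIN1 and CHAF1A. Among the neighbours of HIRA, the probes of DGCR11 and C22orf39 and the probe without a gene name were dim too.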
